A study of Mus musculus with 2 samples.

Results

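Imprinted genes are genes of which a cell transcribes mainly the copy inherited from 1 parent. The account below covers 52 imprinted genes of 20 clusters or single loci, chosen by name from the 24354 genes with a deposited value. They were grouped by cluster, by the parental copy that is known to be expressed, and by where the imprint is known to be read: 36 are imprinted widely in the embryo, 7 mainly in placenta, and 9 mainly in brain or another limited tissue. All 52 had a value above 0 in both libraries.

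RNA was taken from mouse embryonic stem cells (ESCs) that had been led through embryoid bodies (EBs), which are floating aggregates, towards mesoderm. Each condition had 1 culture and 1 library. The study derived both lines from blastocysts with the floxed Ino80 2f/2f allele. The iKO line also carried ROSA26-CreER, a Cre recombinase driven by the ubiquitous ROSA26 locus that acts once a tamoxifen ligand is added, and the control line did not. The sample labels call the control genotype WT and the other Ino80 knockout. Both lines were kept for 2 days in serum medium and then formed EBs in medium with knockout serum replacement (KSR). The EBs were moved to gelatin-coated dishes on day 4, and from the next day both cultures received BMP4 differentiation medium with 0.5 µM 4-OHTM (4-hydroxytamoxifen) for 7 days. Control cells treated in this way are called Diff–CONT, and the others are the library labelled Diff–iKO. A stranded mRNA kit and 1 µg of total RNA went into each library.

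With 1 library per condition no difference below has a replicate check, and line, culture and genotype cannot be told apart. The values are FPKM, fragments per kilobase of transcript after division by library size, and cover both parental copies together, so they cannot show which copy was transcribed. In bulk RNA, fewer cells of a type and less RNA per cell cannot be told apart. The log2 ratio is that of FPKM in the library labelled Diff–iKO to FPKM in Diff–CONT. A gene is called past the cut-off when that ratio is at least 2-fold and FPKM is at least 2 in 1 library. The fragments behind each value, recovered from the smallest steps of FPKM, gave an exact Clopper-Pearson 95% interval for 51 members, which covers counting error only. Diff–CONT had about 27700000 fragments on genes and the other library about 21500000 (rounded).

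Several values of the whole libraries bear on every result. Ino80, the targeted gene, was at 8.90 FPKM in Diff–CONT and at 10.3 FPKM in the other library, the one labelled as its knockout (interval of the log2 ratio of 0.21, 0.11 to 0.31). The gene's summed FPKM does not separate an intact from a recombined transcript. Xist, the RNA that coats the inactive X chromosome, was at 0.0639 and 3.59 FPKM. The Y-linked genes Ddx3y, Eif2s3y and Uty were past the cut-off on the lower side, and Kdm5d was at 1.11 and 0.228 FPKM. Of 9 pluripotency markers 8 were past the cut-off on the higher side, with summed FPKM of 473 and 2950 (Dppa5a, the most abundant, at 258 and 2115). Of 14 yolk sac endoderm markers all 14 were past it on the lower side, with summed FPKM of 422 and 27.4 (Rbp4, a retinol carrier, at 111 and 3.05). Of 10 mesenchyme markers 5 were past it on the lower side and 0 on the higher side, and 9 of the 10 were lower, with a median log2 ratio of −1.0. Their summed FPKM of 2445 and 2230 included the collagen gene Col1a1, the most abundant (880 and 1199). None of these marker genes was at 0 in either library. Of all genes that reached an FPKM of 2, 6.73% were past the cut-off on the higher side and 8.39% on the lower side. The part of these differences in the results on imprinted genes was not tested.

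Genomic imprinting is set in the germ line. At many clusters, but not all, a control region receives DNA methylation there, in the egg or in the sperm. After fertilisation ZFP57 and ZFP445, a pair of zinc finger proteins, bind the methylated copy and with TRIM28 and DNMT1 keep the mark through cell division. Many paternally expressed genes of this kind favour growth of the fetus and placenta and many maternally expressed ones restrain it. In several clusters a long noncoding RNA read from 1 copy silences protein-coding neighbours on the same chromosome.

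The sequence before Mest, a lower-called member, shows the kind of site that ZFP57 reads. Mest, the paternally expressed gene on chromosome 6, has 250 bases before a RefSeq start at chr6:30737800-30738049 (GRCm38.p6, plus strand, 5′ to 3′), printed here with capitals on the ZFP57 hexamer TGCCGC. Both matches are on the opposite strand and so read GCGGCA.

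Mest: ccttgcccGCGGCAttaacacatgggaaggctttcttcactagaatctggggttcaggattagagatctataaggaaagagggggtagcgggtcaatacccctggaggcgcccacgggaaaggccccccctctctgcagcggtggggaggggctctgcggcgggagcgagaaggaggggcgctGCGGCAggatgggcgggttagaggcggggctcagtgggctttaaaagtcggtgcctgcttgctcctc

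The capitals begin 242 and 67 bases before the start. The stretch holds 14 CpG dinucleotides and is 62.4% G and C, against medians of 6 and 52.4% over all promoter windows of that length. Of 32851 windows of 27025 genes 8.68% held TGCCGC on either strand, which is 9.84% of the genes. Of 41 members with a window, 7 held it (17.1%). These were 3 of 14 lower-called members (Mest, Zim1 and Plagl1) and 4 of 27 other members (Copg2, Mcts2, Meg3 and Zdbf2). GCCATNTT, the core that the factor YY1 reads, was in 3.91% of all windows, in 3 of 63 member windows and in 0 of the 21 windows of lower-called members. Some genes have several overlapping windows, a match is a description of letters, and methylation was not measured.

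Several members overlap microRNA (miRNA) hairpins, and 5 mature forms are shown in RefSeq's letters with the seed (bases 2 to 8) in capitals, to show which products lie at the loci described below. Of these, 4 are on the strand of the named member, while miR-127 is on the strand opposite Rtl1, which is not its host. The mature miRNAs themselves were not measured by a poly(A) library.

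mmu-miR-335-5p, in Mest: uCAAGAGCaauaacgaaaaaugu
mmu-miR-483-3p, in Igf2: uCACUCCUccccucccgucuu
mmu-miR-675-5p, in H19: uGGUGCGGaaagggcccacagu
mmu-miR-127-3p, opposite Rtl1: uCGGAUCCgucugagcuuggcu
mmu-miR-410-3p, in Mirg: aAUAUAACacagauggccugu

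None of these 5 seeds is shared. Between Dlk1 and Mirg on chromosome 12, RefSeq places 57 hairpins, of which 14 lie in Mirg, 3 in Rian and 6 opposite Rtl1.

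Across the 52 genes, more were lower than higher in the library labelled Diff–iKO. Of the 43 members that reached an FPKM of 2 in 1 library, 15 (34.9%) were past the cut-off on the lower side, where 8.39% of all 12376 genes at that level were. On the higher side 1 member (2.33%) was past it, Ascl2, against 6.73% of all genes. In either direction 15.1% of all genes were past it. The 15 lower members were Igf2, Airn, Dlk1, Rian, Mirg, Peg3, Zim1, Mest, Asb4, Magel2, Peg12, Grb10, Plagl1, Nnat and Peg13, and they came from 11 of the 19 clusters with a member at that level. Counting error alone left 11 of them wholly below the 2-fold line, while the intervals of Airn, Peg12 and Peg13 crossed it and Rian had no interval. The interval of Airn assumes its shortest RefSeq transcript, of 521 bases, and would be narrower with a longer one. The remaining 9 members stayed under the FPKM minimum and were not called. Of the 15, Asb4 and Magel2 reached the minimum in Diff–CONT only, and Ascl2 reached it only in the other library, so the minimum admitted them through the library where they were high.

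The median log2 ratio, taken of FPKM + 0.1 over the 45 members whose FPKM averaged 1 or more in the libraries, was −0.29, and that over 13145 genes was −0.01. Of the 45 members, 31 were lower and 14 higher. Below the 25th percentile of all genes (−0.40) lay 22 of the 45 members and below the 5th percentile (−1.29) lay 7, while 6 lay above the 75th (0.35) and 0 above the 95th (1.18). The 52 genes together summed to 7358 FPKM in Diff–CONT, 1.67% of all FPKM, and to 4839 FPKM (1.03%) in the library labelled Diff–iKO. Without H19 the sums were 5432 and 3263 FPKM. The 15 lower members went from 2659 to 897 FPKM together, the other 37 from 4698 to 3942. Above 100 FPKM lay 15 members in Diff–CONT and 11 members in the other library.

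**Figure D1:**
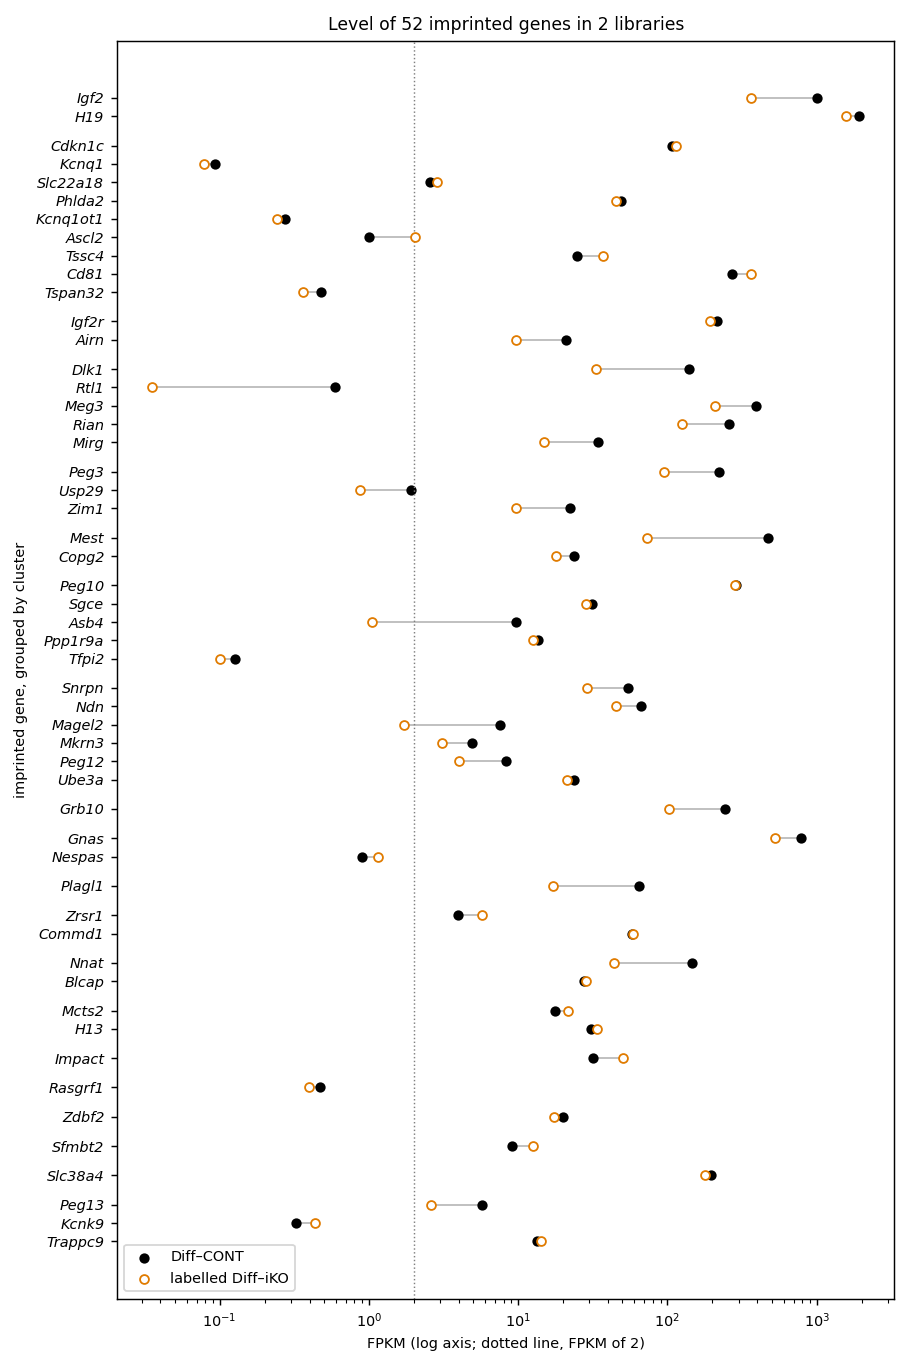
FPKM of each of the 52 imprinted genes for Diff–CONT (filled circles) and the library labelled Diff–iKO (open circles), on a log axis and grouped by cluster, with a dotted line at the FPKM minimum of 2. Among genes past the cut-off the widest gaps are those of Asb4 (9.60 and 1.05 FPKM) and Mest (475 and 73.4 FPKM), while Peg10 (290 and 283 FPKM) has nearly the same place in both.

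By expressed copy and tissue, the widely imprinted genes carried the lower values. Of 33 widely imprinted members with an average FPKM of 1 or more, 27 were lower, their median log2 ratio was −0.91, and 14 of the 31 at the FPKM minimum (45.2%) were past the cut-off on the lower side and 0 on the higher side. Among these, the paternally expressed genes had a median log2 ratio of −0.91, with 9 of 19 past the cut-off, and the maternally expressed genes one of −0.66, with 5 of 12 past it. Over all tissues the paternally expressed genes had 10 of 21 past it on the lower side (47.6%) and a median of −0.91, and the maternally expressed genes 5 of 19 (26.3%) and a median of −0.14. Of all genes at the FPKM minimum, 8.39% were past it on the lower side and 6.73% on the higher side. The difference between the copies was not tested.

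Of the 7 placental genes, 1 was past the cut-off, Ascl2, whose counting interval crossed the 2-fold line. Of the 5 with an average FPKM of 1 or more, 4 were higher and Ppp1r9a was lower, with a median log2 ratio of 0.46, and the intervals of the low-level Tspan32 and Tfpi2 spanned 0. The difference from the other classes was not tested. Of the 14 trophoblast markers 11 reached the FPKM minimum. Of these, 5 (45.5%) were past the cut-off on the higher side (Tfap2c, Krt7, Prl3d1, Prl2c2 and Tpbpa) and 3 (27.3%) on the lower side (Cdx2, Eomes and Hand1). Over all genes the shares were 6.73% and 8.39%. Prl3d1, Prl2c2, Tpbpa, Cdx2 and Eomes reached the minimum only in the library where they were high. The summed FPKM of the 14 markers was 156 and 199. Among them Krt7, an epithelial keratin and the most abundant of the list by the average of both libraries, was at 39.2 and 86.4 FPKM, and none was at 0 in either library. The part of trophoblast cells in the placental values was not tested. The genes imprinted in brain or another limited tissue had a median of 0.01. Of the 7 at the FPKM minimum, 1 (14.3%) was past the cut-off on the lower side, Peg13, against 8.39% of all genes. Of 12 neural markers 11 reached the FPKM minimum. Of these, 3 (27.3%, Elavl4, Dcx and Snap25) were past the cut-off on the lower side and 0 on the higher side, against 8.39% and 6.73% of all genes. Elavl4 and Snap25 reached the minimum in Diff–CONT only, and the intervals of Dcx and Snap25 crossed the 2-fold line. Of the 11 neural markers with an average FPKM of 1 or more, 9 were lower, with a median log2 ratio of −0.77, while the summed FPKM of the list was 167 and 169. Tubb3, a neuronal tubulin and the most abundant by the average, was at 60.1 and 45.0 FPKM, and Nes and Stmn2 were the higher ones (28.8 and 44.1 FPKM, 36.1 and 56.5 FPKM).

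**Figure D2:**
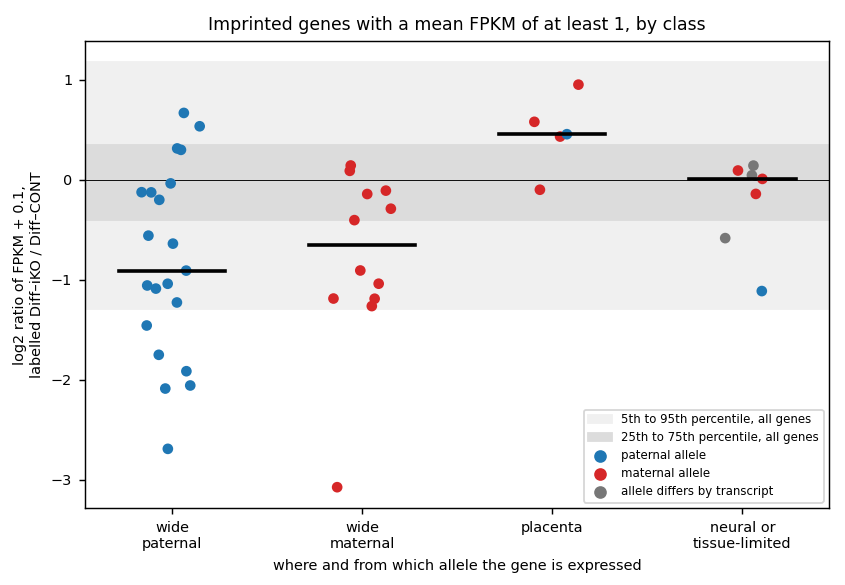
Log2 ratio of FPKM + 0.1 (vertical axis) of the 45 imprinted genes with an average FPKM of 1 or more, by where and from which copy they are expressed. Points are genes, bars are class medians and the grey bands span the 25th to 75th and the 5th to 95th percentile of all genes; the medians of the widely imprinted paternal and maternal classes are −0.91 and −0.66, that of the placental class 0.46.

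The H19-Igf2 cluster, at chr7:142575529-142666816, holds the most abundant member. Its control region is methylated on the paternal copy, which leaves Igf2 to be read from that copy and H19 from the maternal one with the same enhancers. Igf2, the fetal insulin-like growth factor, was at 1000 FPKM in Diff–CONT and 364 FPKM in the other library, a log2 ratio of −1.46 (−1.51 to −1.41). H19, a long noncoding RNA, was at 1925 and 1576 FPKM, a log2 ratio of −0.29 (−0.30 to −0.27). H19 was the gene of rank 3 in Diff–CONT and of rank 16 in the other library, and Igf2 moved from rank 50 to rank 173. The quotient of Igf2 to H19 FPKM was 0.520 and 0.231, so the pair's log2 ratios differed by −1.17 (−1.23 to −1.12, counting error only). Igf2os, read from the opposite strand of Igf2 over 98 exonic bases, was at 8.44 and 3.61 FPKM. Because the strand setting of the counting is not given, reads of such overlapping genes cannot be told apart.

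The genes that act on the IGF2 pathway can be set beside it. Igf2r, the maternally expressed receptor that clears IGF2, was at 214 and 194 FPKM, a log2 ratio of −0.14 (−0.16 to −0.13). Airn, the paternally expressed noncoding RNA antisense to Igf2r that silences it in cis, was at 20.8 and 9.73 FPKM, a log2 ratio of −1.10 (−1.50 to −0.69). Thus in the Igf2r-Airn cluster (chr17:12682406-12860136) Airn was past the cut-off and the coding gene it silences was not. Grb10, a maternally expressed adaptor that dampens insulin and IGF receptor signalling, was at 245 and 102 FPKM (log2 ratio −1.27, −1.30 to −1.24). Plagl1, a paternally expressed zinc finger factor on chromosome 10, was at 64.4 and 17.0 FPKM (−1.92, −1.99 to −1.85).

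Of 10 partners of these growth genes, 4 were past the cut-off on the lower side and 1 on the higher side, against 8.39% and 6.73% of all genes. The lower ones were the ligand Igf1 (4.22 and 1.55 FPKM), the cell cycle inhibitor Cdkn1b (24.8 and 8.86 FPKM) and the RNA-binding proteins Lin28a (103 and 28.6 FPKM) and Lin28b (14.5 and 5.71 FPKM). Cdkn1a, the p21 cell cycle inhibitor, was higher (78.1 and 157 FPKM). The receptor Igf1r was at 27.6 and 17.9 FPKM and the insulin receptor Insr at 18.6 and 14.7 FPKM. The Igf2 mRNA-binding proteins Igf2bp1 (47.1 and 44.7 FPKM), Igf2bp2 (60.6 and 36.9 FPKM) and Igf2bp3 (50.1 and 26.1 FPKM) were not past the cut-off, with log2 ratios of −0.08, −0.71 and −0.94.

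The Dlk1-Meg3 cluster, at chr12:109452823-109749460, was lower in all of its 5 members. Here too the control region is methylated on the paternal copy. Dlk1, a Delta-like surface protein of fetal tissues, was at 139 and 33.3 FPKM, a log2 ratio of −2.06 (−2.18 to −1.94). Rtl1, a retrotransposon-derived protein of placental vessels, was at 0.594 and 0.0354 FPKM, under the FPKM minimum, with 110 and 5 fragments and an interval of −5.69 to −2.77 around −4.07. Both are read from the paternal copy.

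The maternal noncoding RNAs of the cluster also had lower values, by less than Dlk1. Meg3 was at 392 and 209 FPKM, a log2 ratio of −0.91 (−0.95 to −0.87) and so short of the cut-off. Rian, a host of small nucleolar RNAs, was at 257 and 125 FPKM (−1.04), and Mirg, a miRNA host, at 34.3 and 15.0 FPKM (−1.19, −1.37 to −1.02). The quotient of Dlk1 to Meg3 FPKM was 0.355 and 0.160, a difference of the log2 ratios of −1.15 (−1.27 to −1.03). Thus paternal and maternal transcripts were on the same side, and the quotient between them was not kept. The hairpin of miR-127 lies opposite Rtl1, on the strand read from the maternal copy, and that of miR-410 in Mirg is read from the same copy.

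In the Peg3 cluster, at chr7:6671269-6967219, the genes of both copies had almost the same ratio. Peg3, a paternally expressed zinc finger protein, was at 223 and 95.2 FPKM (log2 ratio −1.23, −1.25 to −1.20). Zim1, its maternally expressed zinc finger neighbour, was at 22.3 and 9.72 FPKM (−1.20, −1.28 to −1.12). The pair's ratios differed by −0.03 (−0.11 to 0.06), with FPKM quotients of 9.99 and 9.80. Usp29, a ubiquitin-specific peptidase read from the same bidirectional promoter as Peg3, was at 1.91 and 0.866 FPKM, under the minimum, with a log2 ratio of −1.14.

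Mest, whose promoter and miR-335 are printed above, is an alpha/beta hydrolase of the endoplasmic reticulum and is read from the paternal copy. It was at 475 FPKM in Diff–CONT and 73.4 FPKM in the other library, 6.47-fold lower, a log2 ratio of −2.69 (−2.74 to −2.64). Copg2, a coatomer subunit of the opposite strand, was at 23.7 and 17.9 FPKM (−0.41, −0.50 to −0.31). The genes share 912 exonic bases, and the log2 ratios differed by −2.29 (−2.39 to −2.18).

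**Figure D3:**
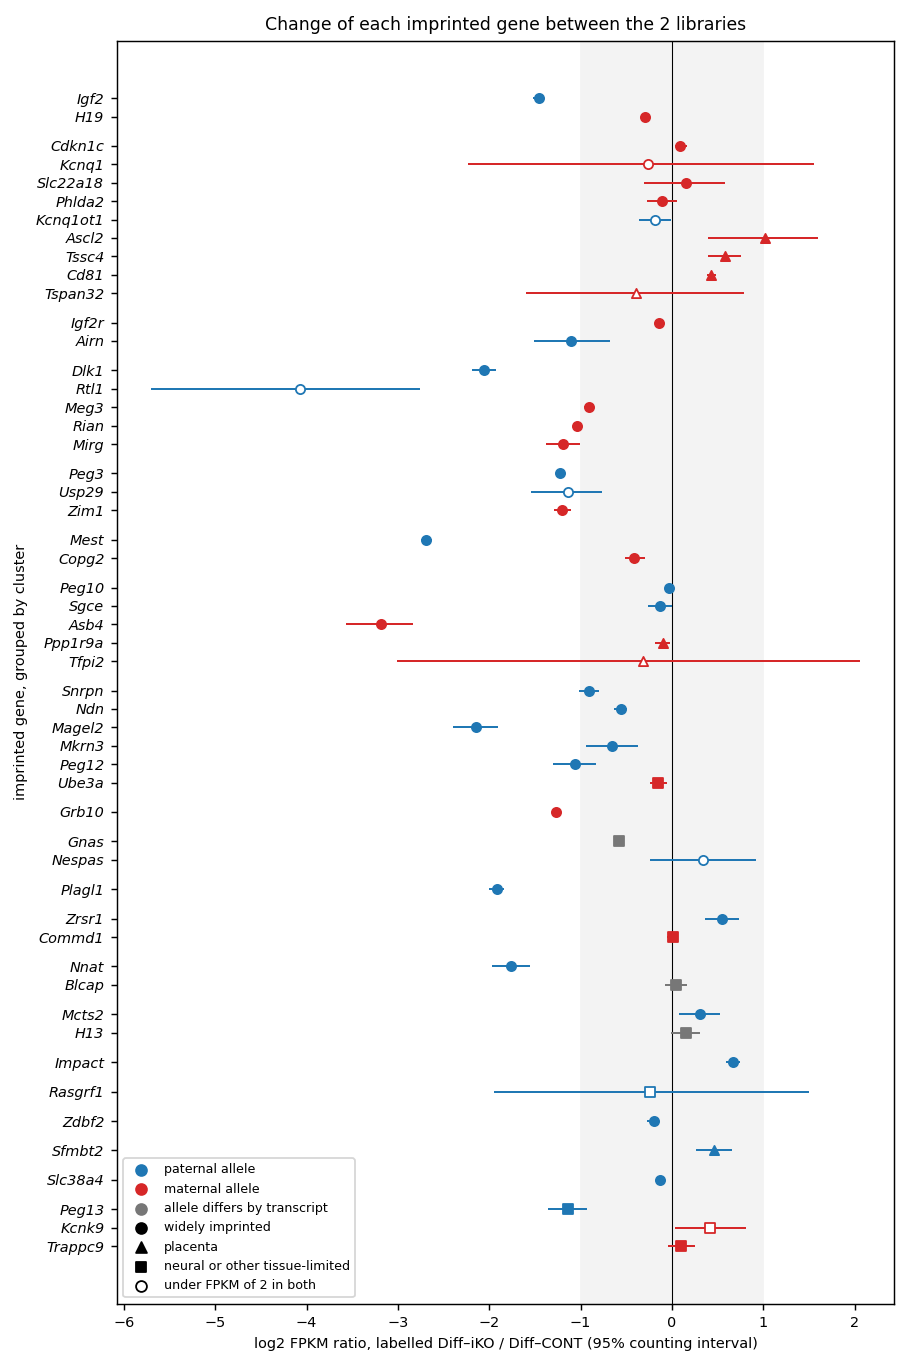
Log2 FPKM ratio of each imprinted gene (horizontal axis, with exact 95% counting intervals as bars where they could be computed), grouped by cluster, with colour for the expressed copy, shape for where it is imprinted, and open symbols for genes under the FPKM minimum. Mest (−2.69), Asb4 (−3.19), Magel2 (−2.15) and Dlk1 (−2.06) lie beyond the grey band of less than 2-fold, and Ascl2 (1.02) is the one member beyond it on the right.

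The Peg10-Sgce cluster, at chr6:3962595-5433022, held the member with the lowest ratio of those at the FPKM minimum, Asb4, beside 3 with ratios near 0. Peg10 and Sgce are read from the paternal copy on either side of a shared control region. Peg10, a retrotransposon-derived protein needed for the placenta, was at 290 and 283 FPKM (log2 ratio −0.03, −0.05 to −0.02), and epsilon-sarcoglycan Sgce at 31.2 and 28.6 FPKM (−0.13, −0.25 to −0.01). Asb4, a maternally expressed ankyrin and SOCS box protein at the far end, was at 9.60 and 1.05 FPKM, 9.13-fold lower (−3.19, −3.56 to −2.85). Between them, neurabin Ppp1r9a was at 13.5 and 12.6 FPKM (−0.10, −0.17 to −0.03). The protease inhibitor Tfpi2 was at 0.126 and 0.101 FPKM, with 5 and 3 fragments, too few to place it.

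The Kcnq1 cluster, at chr7:142966829-143503150, had no member past the cut-off on the lower side. Its noncoding RNA, Kcnq1ot1, is read from the paternal copy and silences the others on that copy. Kcnq1ot1 was at 0.273 and 0.241 FPKM over a transcript of 93092 bases, with 767 and 505 fragments, a log2 ratio of −0.18 (−0.35 to −0.02). Cdkn1c, the CDK inhibitor p57, was at 108 and 115 FPKM (0.09, 0.04 to 0.15), and Phlda2, which limits placental growth, at 48.6 and 45.1 FPKM (−0.11, −0.26 to 0.05). Slc22a18, a transporter, was at 2.57 and 2.85 FPKM (0.15, −0.29 to 0.57), and the potassium channel Kcnq1 at 0.0937 and 0.0784 FPKM, on 8 and 5 fragments with an interval of −2.22 to 1.54, too few to place it. The log2 ratios of the other 4 ran from −0.18 to 0.15.

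On the Ascl2 side of the same cluster lie the genes imprinted mainly in placenta. Ascl2, a basic helix-loop-helix factor of trophoblast progenitors, was at 1.00 and 2.03 FPKM, with 43 and 64 fragments and a log2 ratio of 1.02 (0.41 to 1.59), so its counting interval crossed the 2-fold line. The tetraspanin Cd81 was at 271 and 366 FPKM (0.43, 0.40 to 0.47), and Tssc4 at 24.7 and 37.0 FPKM (0.58, 0.41 to 0.75). The tetraspanin Tspan32 was at 0.476 and 0.364 FPKM, on 19 and 11 fragments. These 4 genes are known to be expressed from both copies in embryonic tissue. Sfmbt2, a Polycomb-related gene of chromosome 2 imprinted in extraembryonic tissue and read from the paternal copy, was at 9.15 and 12.6 FPKM (0.46, 0.28 to 0.65).

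The Snrpn-Ube3a cluster, at chr7:59228750-62464510, is the mouse counterpart of the Prader-Willi and Angelman region. All 5 paternally expressed members were lower, 2 of them past the cut-off. Magel2, a MAGE family protein, was at 7.60 and 1.71 FPKM (log2 ratio −2.15, −2.39 to −1.92). Peg12, a FRAT family protein, was at 8.33 and 4.00 FPKM (−1.06, −1.29 to −0.84). Snrpn, the spliceosomal protein SmN whose promoter holds the control region, was at 54.7 and 29.1 FPKM (−0.91, −1.01 to −0.81), just short of the cut-off.

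The other 2 paternal genes of that cluster had smaller ratios. Ndn, the MAGE protein necdin, was at 66.6 and 45.2 FPKM (−0.56, −0.62 to −0.50), and the makorin ring finger gene Mkrn3 at 4.88 and 3.10 FPKM (−0.66, −0.93 to −0.38). Ube3a, the ubiquitin ligase whose paternal copy is silent in neurons alone, was at 23.6 and 21.4 FPKM (−0.15, −0.23 to −0.06). Snhg14, the paternal noncoding RNA that runs over Ube3a on the opposite strand and shares 1803 exonic bases with it, was at 27.0 and 13.2 FPKM (−1.03, −1.30 to −0.76).

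A few members lie inside a host gene, from which they are set apart by their own imprinted promoter. Nnat, the proteolipid neuronatin in an intron of Blcap (chr2:157556362-157571274), was at 147 and 43.6 FPKM (log2 ratio −1.76, −1.96 to −1.56), while Blcap was at 27.6 and 28.5 FPKM (0.04, −0.06 to 0.15). Peg13, a noncoding RNA in Trappc9 on chromosome 15, was at 5.74 and 2.60 FPKM (−1.14, −1.35 to −0.94), while Trappc9, a trafficking complex subunit, was at 13.3 and 14.2 FPKM (0.10, −0.03 to 0.24). Kcnk9, the third gene of that locus and a potassium channel, was at 0.326 and 0.435 FPKM. In both loci the paternal insert was past the cut-off and the host was not.

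The retrogene inserts had ratios above 0. Zrsr1, a retrogene of a splicing factor in Commd1 on chromosome 11, was at 3.94 and 5.76 FPKM (0.55, 0.37 to 0.72), and Commd1 at 58.1 and 58.5 FPKM (0.01, −0.04 to 0.06). Mcts2, a retrogene of a translation factor in H13 on chromosome 2, was at 17.6 and 21.7 FPKM (0.31, 0.09 to 0.52), and the signal peptide peptidase H13 at 30.6 and 33.8 FPKM (0.15, −0.00 to 0.30). The log2 ratios of Mcts2 and H13 differed by 0.16 (−0.10 to 0.42). Their loci had 0 members past the cut-off.

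The members left were not past the cut-off or were under the FPKM minimum. Gnas, the stimulatory G protein subunit, whose transcripts differ in the copy they are read from, was at 791 and 528 FPKM (−0.58, −0.61 to −0.55), and its antisense RNA Nespas at 0.905 and 1.15 FPKM (0.34, −0.23 to 0.91). Slc38a4, an amino acid transporter, was at 195 and 179 FPKM (−0.13, −0.16 to −0.10), and the zinc finger gene Zdbf2 at 20 and 17.4 FPKM (−0.20, −0.26 to −0.15). Impact, an inhibitor of the kinase GCN2, was at 31.7 and 50.5 FPKM, the highest ratio of any paternally expressed member (0.67, 0.60 to 0.74). Rasgrf1, an exchange factor for Ras, was at 0.470 and 0.399 FPKM, on 9 and 6 fragments if its shortest transcript is assumed.

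Noncoding and coding members were also set side by side. Of 8 noncoding RNAs, 6 reached the FPKM minimum and 4 of these (Airn, Rian, Mirg and Peg13) were past the cut-off on the lower side. Of the 37 coding genes at the minimum 11 were past it, and of all genes 8.39%. The intervals of Airn (with its shortest transcript assumed) and Peg13 crossed the 2-fold line, and Rian had none. No noncoding member was past it on the higher side.

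Genes that flank the clusters give the local background. Within 500 kb of the 20 clusters lay 225 other genes outside the imprinted lists, of which 112 reached the FPKM minimum. Of these, 8 (7.14%) were past the cut-off on the higher side and 11 (9.82%) on the lower side, and the median log2 ratio over 119 of them was −0.08. The corresponding values over all genes were 6.73%, 8.39% and −0.01. The 11 included Igf2os and Snhg14, which are known to be imprinted themselves. Whether others of the 225 are imprinted was not checked, so the background may not be clean on either side. At the Dlk1-Meg3, Peg3 and Mest clusters 0 of 2, 0 of 6 and 0 of 6 neighbours at the minimum were past it. At the Snrpn-Ube3a cluster 2 of 4 neighbours were past it on the lower side, Snhg14 and A230057D06Rik (2.07 and 0.588 FPKM), while Gm7367 was at 5.94 and 8.44 FPKM. The fourth, Snurf (3.29 and 1.73 FPKM), shares 216 exonic bases with Snrpn, so with the imprinted Snhg14 these neighbours are no clean local background. At the Peg10-Sgce cluster 1 of 4 was, Gng11 (7.01 and 2.80 FPKM), with Col1a2 at 336 and 168 FPKM and a median of −0.70. At the H19-Igf2 cluster the neighbour Ctsd, a lysosomal protease, was higher (461 and 1169 FPKM).

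**Figure D4:**
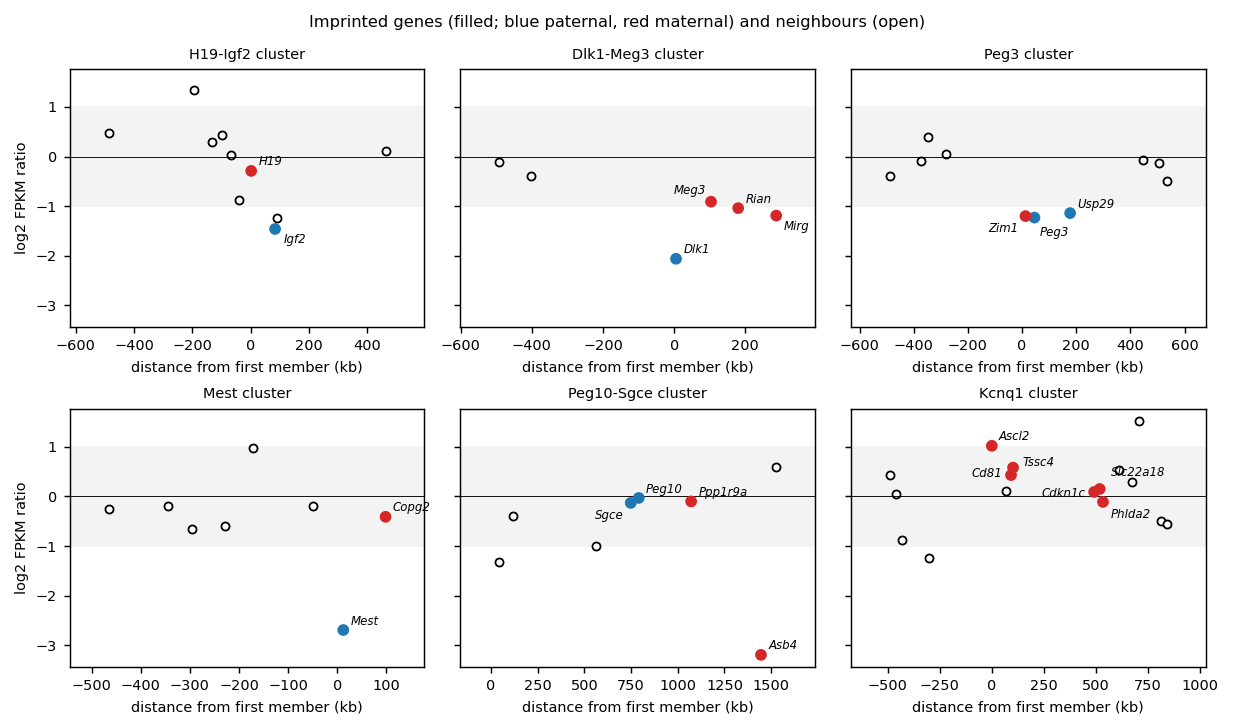
Log2 FPKM ratio (vertical axis) against distance in kb from the first member of each of 6 clusters, for imprinted members with an average FPKM of 1 or more (filled, blue paternal and red maternal) and for other genes within 500 kb (open). In the Dlk1-Meg3, Peg3 and Mest panels all open circles lie within the grey band of less than 2-fold, where Dlk1 (−2.06), Peg3 (−1.23) and Mest (−2.69) do not.

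A further list of imprinted genes, of which 26 of 27 had a row, had a median log2 ratio of −0.13 over 19 genes. Of its 16 genes at the FPKM minimum, 3 (18.8%) were past the cut-off on the lower side and 2 (12.5%) on the higher side. Of all genes 8.39% and 6.73% were. The lower ones were Dio3, the deiodinase at the far end of the Dlk1 domain (4.10 and 1.59 FPKM), Nap1l5, a retrogene (2.11 and 0.992 FPKM), and decorin, Dcn (73.2 and 33.9 FPKM). The higher ones were Jade1, which is imprinted in extraembryonic tissue (15.8 and 49.2 FPKM), and Gpr1, a receptor gene next to Zdbf2 (0.971 and 2.65 FPKM). Dio3, Nap1l5 and Gpr1 reached the minimum only in the library where they were high, and their counting intervals crossed the 2-fold line. Nap1l4, the most abundant of the list by the average of both libraries, was at 67.5 and 61.5 FPKM. The insulin gene Ins2 was at 0.251 FPKM, 2 fragments, in Diff–CONT and at 0 in the other library.

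Of 18 genes for factors that set, keep or read the imprint, 0 were past the cut-off on the lower side and 3 (16.7%) on the higher side, against 8.39% and 6.73% of all genes, and the median log2 ratio was 0.09. The higher ones were Dnmt3l, the cofactor of germline DNA methylation (14.8 and 61.5 FPKM, log2 ratio 2.06), Dppa3, which shields the maternal genome from demethylation in the zygote (10.2 and 46.1 FPKM, 2.17), and the 5-methylcytosine oxidase Tet1 (8.25 and 36.0 FPKM, 2.12). All 3 are also abundant in undifferentiated ESCs. Zfp57 was at 60.0 and 104 FPKM (0.80, 0.73 to 0.87), Zfp445 at 33.4 and 19.9 FPKM (−0.75, −0.82 to −0.68), and Trim28, the most abundant of the list, at 212 and 278 FPKM (0.39, 0.36 to 0.42). The maintenance methyltransferase Dnmt1 was at 53.5 and 58.9 FPKM (0.14), and the de novo enzyme Dnmt3b at 53.0 and 26.6 FPKM, just short of the 2-fold line (interval −1.07 to −0.92).

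**Figure D5:**
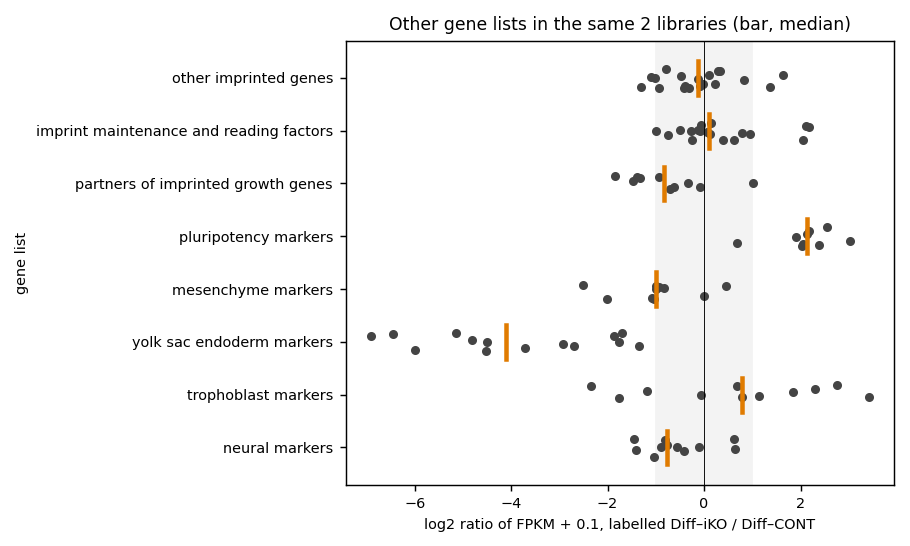
Log2 ratio of FPKM + 0.1 (horizontal axis) of the genes of 8 other lists with an average FPKM of 1 or more; points are genes, orange bars list medians and the grey band less than 2-fold. The medians run from −4.11 (yolk sac endoderm markers) to 2.14 (pluripotency markers), with the imprint factors at 0.09 and the other imprinted genes at −0.13.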

How the data were processed

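The authors deposited FPKM values of 24354 genes for the 2 libraries, which were matched to columns by name, and 0 other value columns were present. The submitters' processing notes name STAR 2.7.9a, Cufflinks 2.2.1 and Cuffnorm on mm10. The gene annotation and strand setting are not given in the sources used here, so overlapping genes are uncertain.

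The 52 members, their classes from textbook knowledge and all lists were chosen with earlier results of these data known. All members are named. The rule for the other lists was the genes past the cut-off and the most abundant by average FPKM. Of the pluripotency, yolk sac endoderm and mesenchyme markers counts and the most abundant gene are printed, and a few further genes were picked after their values were seen. Log2 ratios used no pseudocount, and medians used FPKM + 0.1 over genes whose FPKM averaged 1 or more. No test of the conditions was possible, so no p-value is given.

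Fragments were recovered from the steps of FPKM in 10484 genes with RefSeq transcripts of at least 1000 bases, with an assumed fragment length of 200 bases. Of low values, 87.1% (Diff–CONT) and 88.0% (labelled Diff–iKO) lay within 0.2 of a whole multiple, against 40% by chance. Counts use the shortest RefSeq transcript, and Rian had none. Where longer transcripts were expressed, the counts are too low and the intervals too wide. The steps were tested on simulated data with counting noise alone, which says nothing of variation between cultures. Differences of log2 ratios within a pair carry normal-approximation counting intervals.

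Coordinates are from GENCODE vM21 (GRCm38). Neighbours within 500 kb were chosen after the members' values were seen and leave out small RNA genes. Motifs were searched on both strands of the 250 bases before RefSeq starts, and the promoter printed was limited to a lower-called member with a motif and no annotated exon in the window. Alternatives were pseudocounts of 0.1 and 1, no filter and an FPKM minimum of 5, 3 scalings and FC of 1.5 and 4. The scripts ran in Python 3.11.15 with pandas 2.3.3, numpy 2.4.6, matplotlib 3.10.9 and scipy 1.17.1.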

Additional observations from a re-analysis of the deposited data

How the results depend on the processing

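The higher count, Ascl2 alone, was 0 with pseudocounts of 0.1 or 1, with an FPKM minimum of 5, with equal sums of FPKM and with FC ≥ 4, and was 2 with FC ≥ 1.5. The lower count was 4 with FC ≥ 4 and otherwise ran from 13 (pseudocount 1, which lost Peg12 and Peg13) to 18 (FC ≥ 1.5). It was 17 with no filter, which added Rtl1 and Usp29, and 17 with equal sums of FPKM, which moved the median of all genes to −0.10 and took Meg3 (−1.01) and Snrpn past the cut-off. With a pseudocount of 1 the medians of the paternally expressed and of the widely imprinted genes were both −0.64. The median of the genes imprinted in limited tissues was −0.08 with equal sums. Of 208 values of single members under the pseudocount of 1 and the 3 scalings, the settings that can move 1 gene's ratio, 32 moved by more than the half-width of their counting interval (for Rian, which had none, by more than rounding). No paired analysis was possible because each group has 1 library. Kcnq1, Tfpi2 and Rasgrf1 had 9 recovered fragments or fewer in each library, and their counting intervals spanned 2-fold in both directions. For Rasgrf1 the count rests on an assumed transcript of 853 bases, and a longer one would give more fragments.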
